A study of Mus musculus with 24 samples.

Results

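The 10 genes described here encode C-type lectin receptors of myeloid cells: Clec4a1, Clec4a2, Clec4a3, Clec4d, Clec4e, Clec4n, Clec7a, Clec10a, Clec12a and Mgl2. They were chosen by name, and all 10 were found among the 17301 genes of the table by their Ensembl identifiers. Each of them passed the filter on low values described below. Myeloid cells were sorted from pooled colon lamina propria (LP) of C57BL/6J mice, which the labels call healthy, and from colon tumours, likewise pooled, of Apc Min/+ mice, in which an inherited defect of Apc leads to adenomas of the gut. Per the methods, both these mice and the C57BL/6J controls had received dextran sodium sulphate (DSS), which inflames the colon and speeds tumour formation, in the drinking water as young adults and were killed some weeks later. The labels name no treatment. The sorted populations were F4/80hi MHCIIhi and F4/80hi MHCIIlow macrophages (hereafter MHCIIhi and MHCIIlow macrophages), Ly6Chi MHCII- monocytes and Ly6Ghi F4/80- CD11b+ neutrophils, each from both tissues, which gave 8 groups of 3 libraries, 24 in all. A library was 1 pool of tissue from several mice, so the spread between libraries is a spread between pools and not between animals. LP and tumours came from mice of different genotype, which per the methods had different doses of DSS. They were also digested and enriched for leukocytes by different protocols. Tissue, genotype, DSS dose and isolation cannot be told apart.

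C-type lectin receptors recognise sugars and lipids of microbes and of damaged or altered host cells. Clec4e (Mincle), Clec4d (MCL) and Clec4n (Dectin-2) lie in the membrane with the Fc receptor gamma chain, and Clec7a (Dectin-1), the receptor for fungal beta-glucan, has a signalling motif of its own in its tail. All of them activate the kinase Syk and, through the adaptor Card9, NF-kB. Clec4a2 (Dcir1) and Clec12a (MICL) carry an inhibitory motif (ITIM) that recruits phosphatases, whereas Clec4a1 (Dcir4) and Clec4a3 (Dcir3) are relatives of Clec4a2 without it. Mgl2 (CD301b) and Clec10a (MGL1, CD301a) bind terminal galactose and N-acetylgalactosamine and are used as markers of subsets of macrophages and dendritic cells. In the gut, receptors of these kinds sense commensal fungi and bacteria and glycans of mucus.

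The libraries held 12838061 to 41718078 reads on genes. The labelled macrophages and neutrophils were seen in their defining markers. C1qa, a complement gene of macrophages, had at least 18310 reads in each macrophage library and at most 231 in any monocyte or neutrophil library, and Ly6g, the neutrophil surface marker, had 859 to 4873 reads in neutrophils and at most 40 elsewhere. Values are log2 RPKM (reads per length of gene and per size of the library) on library sizes that the authors had scaled between libraries. The scaled size was 0.466 to 0.682 times the counted reads in neutrophils and 0.981 to 1.51 times in the other populations, so differences that involve neutrophils depend on this scaling. With sizes taken as the counted reads, the median difference of all genes between neutrophils and monocytes moved from -0.24 to -1.07 in LP and from -0.36 to -1.49 in tumours, and between tumour and LP neutrophils from -0.12 to -0.59. Higher genes then made up 15.9% of all calls between tumour and LP neutrophils, against 40.8% as deposited, and 57.1% when libraries were centred on their median. A list of 6 monocyte markers separated monocytes from neutrophils less clearly. It summed to 808 to 1226 RPKM in LP monocytes and to 646 to 805 RPKM in LP neutrophils. In tumours the sums were 2630 to 3193 RPKM in monocytes and 912 to 1282 RPKM in neutrophils. In sorted bulk cells, fewer cells that express a gene and less RNA per cell cannot be told apart.

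Several of the 10 genes differed in level between the populations. Clec4d and Clec4e were highest in neutrophils, Clec4a1 and Clec4a3 were lowest there, Clec4n was highest in tumour macrophages, and Mgl2 was highest in MHCIIhi macrophages of both tissues. The widest span of group means with reads in every library was that of Clec4e, from 4.40 in tumour MHCIIhi macrophages to 11.51 log2 RPKM in tumour neutrophils. The narrowest was that of Clec4a2, from 3.44 in tumour monocytes to 4.99 log2 RPKM in tumour neutrophils. Only Mgl2 and Clec10a had libraries with 0 reads, all of them from tumour monocytes or tumour neutrophils. In the genome, 8 of the 10 genes lie on chromosome 6 (Clec4a1, Clec4a2, Clec4a3, Clec4d, Clec4e, Clec4n, Clec7a and Clec12a) and Clec10a and Mgl2 lie side by side on chromosome 11. None shared exon bases with another gene, but 12.7% of the 51-base stretches of Mgl2 transcripts and 8.75% of those of Clec10a also occurred in other genes, mostly in each other. For Clec4a2 it was 6.69%, mainly in Clec4a4 and Clec4b1. Part of the reads of these 3 genes could belong to a relative.

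**Figure D1:**
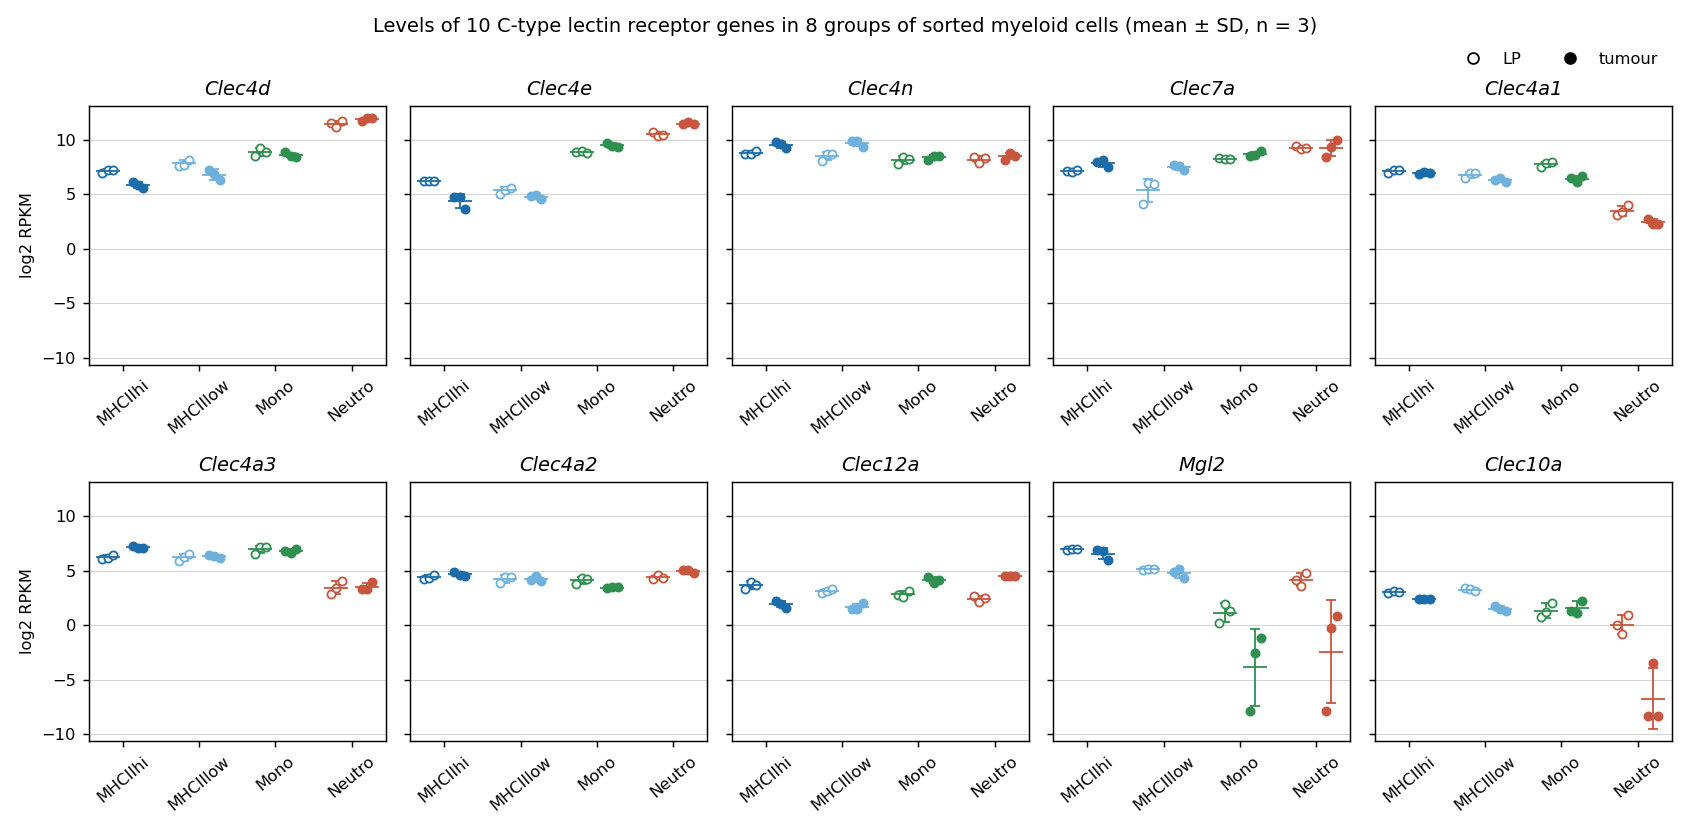
Levels of the 10 genes in log2 RPKM (y axis) in the 4 populations (x axis), with LP libraries as open and tumour libraries as filled circles and horizontal lines and bars for the mean ± SD of 3 libraries. Clec4d and Clec4e are highest in neutrophils and Clec4a1 and Clec4a3 lowest, and the libraries near -8 log2 RPKM for Mgl2 and Clec10a hold 0 reads.

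Whether the members differed between tumour and LP was tested in each population with limma over the 12878 genes whose mean RPKM reached 1 in any group. The p values were adjusted by the Benjamini-Hochberg method and called under 0.05. In MHCIIhi macrophages, 2 of 10 members were higher in tumours (Clec4a3 and Clec4n), where 8.01% of all genes tested were called higher, and 3 were lower (Clec4d, Clec4e and Clec12a), where 11.5% of all genes were called lower. In MHCIIlow macrophages, Clec4n and Clec7a were the 2 members higher in tumours, against 11.5% of all genes, and Clec4d and Clec12a the 2 that were lower, against 11.8%. In monocytes 1 member was higher (Clec12a, 4.86% of all genes) and 2 were lower (Clec4a1 and Clec4a2, 4.43% of all genes). In neutrophils, 3 members were higher (Clec4a2, Clec4e and Clec12a, 13.1% of all genes) and 3 were lower (Clec4a1, Clec10a and Mgl2, 19% of all genes). The median difference of the 10 members was -0.30 in MHCIIhi and -0.42 in MHCIIlow macrophages, 0.03 in monocytes and 0.21 in neutrophils on the log2 scale, beside 0, 0.06, 0 and -0.12 for all genes. Clec12a was the member called in all 4 populations, lower in both macrophage subsets and higher in monocytes and neutrophils of tumours.

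**Figure D2:**
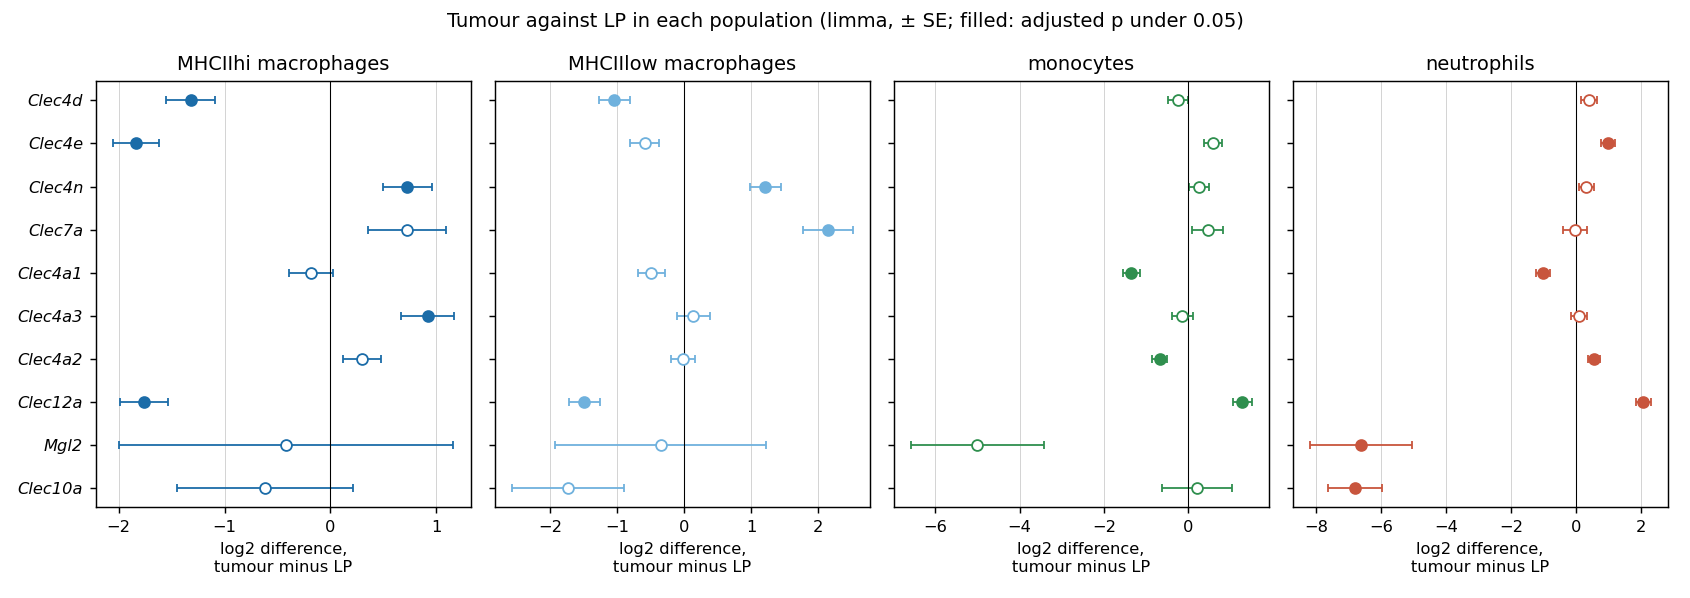
Log2 difference between tumour and LP (x axis, its range differs between panels) for each gene (y axis) in the 4 populations, as the limma estimate ± SE, filled where the adjusted p was under 0.05. Clec12a lies at -1.76 and -1.49 in macrophages and at 1.28 and 2.08 in monocytes and neutrophils. The estimates of Mgl2 and Clec10a in neutrophils and of Mgl2 in monocytes depend on the prior of 0.25 reads in libraries with 0 reads.

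Clec4d and Clec4e, whose proteins form a receptor complex for mycobacterial glycolipid, are neighbours on chromosome 6, with Clec4d on the + strand (chr6:123262111-123275265) and Clec4e on the - strand (chr6:123281789-123289870, GRCm38). Their log2 RPKM had a Pearson correlation of 0.93 over the 24 libraries, which are largely separated by population and so are not independent points. The 250 bases upstream of their starts (RefSeq, GRCm38.p6, 5′ to 3′ on the strand of the gene) are shown because both genes moved together. Capitals mark matches, on either strand, to the C/EBP motif TTNNGNAA, the PU.1 motif GAGGAAG and an NF-kB motif of GGG and CC with any 5 bases between them:
Clec4d, chr6:123261857-123262106, + strand: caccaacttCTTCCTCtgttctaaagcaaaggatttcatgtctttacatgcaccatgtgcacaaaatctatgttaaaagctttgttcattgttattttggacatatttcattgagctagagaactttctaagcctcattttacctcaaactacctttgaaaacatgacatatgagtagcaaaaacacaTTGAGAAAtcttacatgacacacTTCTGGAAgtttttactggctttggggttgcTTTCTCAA
Clec4e, chr6:123289872-123290121, - strand: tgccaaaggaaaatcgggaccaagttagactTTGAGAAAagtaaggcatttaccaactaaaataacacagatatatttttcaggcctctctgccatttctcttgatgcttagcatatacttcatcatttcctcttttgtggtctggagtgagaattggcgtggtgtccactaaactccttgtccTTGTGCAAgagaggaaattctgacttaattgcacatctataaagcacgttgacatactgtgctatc
Both windows held C/EBP matches, 3 in Clec4d and 2 in Clec4e, and among all 32851 promoter windows of this length 36.8% held at least 1. The capitals in Clec4d 241 to 235 bases before the start are a PU.1 match on the other strand, a motif held by 10.6% of all windows, and neither window held an NF-kB match, which 45.8% of all windows did. Clec4n and Clec10a had no promoter entry, and among the 8 members with one, 5 held a C/EBP match (Clec4a2, Clec4d, Clec4e, Clec12a and Mgl2), 2 an NF-kB match (Clec4a1 and Mgl2) and 3 a PU.1 match (Clec4a1, Clec4d and Clec12a).

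Clec4d was at 11.57, 11.23 and 11.71 log2 RPKM in LP neutrophils and at 11.76, 11.98 and 11.99 in tumour neutrophils. Monocytes had 8.52, 9.23 and 8.88 log2 RPKM in LP and 8.88, 8.56 and 8.48 in tumours. These groups of neutrophils and monocytes did not overlap, and Clec4d was 6.17-fold higher in neutrophils than in monocytes of LP (log2 difference 2.63 ± 0.23 SE, limma adjusted p = 1.48e-08) and 9.65-fold higher in tumours (3.27 ± 0.23, adjusted p = 5.07e-10). With quantile normalization these differences were 1.53 and 1.54, and with library sizes as counted reads 1.80 and 2.14, and all 4 passed the threshold. In macrophages Clec4d stood at 6.99, 7.23 and 7.28 log2 RPKM in MHCIIhi and 7.65, 7.74 and 8.20 in MHCIIlow cells of LP. Tumour macrophages had 6.15, 5.83 and 5.56 log2 RPKM in MHCIIhi and 7.29, 6.88 and 6.29 in MHCIIlow cells. Each tumour library thus lay below each LP library of the same subset, and Clec4d fell by 1.32 (SE 0.23, adjusted p = 0.000402) in MHCIIhi and by 1.04 (SE 0.23, adjusted p = 0.00257) in MHCIIlow macrophages on the log2 scale. When only the 6 MHCIIlow libraries were fitted, the latter had an adjusted p of 0.068.

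Clec4e was at 10.74, 10.35 and 10.45 log2 RPKM in LP neutrophils and at 11.44, 11.61 and 11.46 in tumour neutrophils. The 2 groups did not overlap, and the tumour libraries were 1.99-fold higher (log2 difference 0.99 ± 0.22, adjusted p = 0.0017). With library sizes as counted reads this difference was 0.52 (adjusted p = 0.0347), and with quantile normalization it was 0.25 (adjusted p = 0.482). Monocytes had 8.94, 8.98 and 8.80 log2 RPKM in LP and 9.69, 9.47 and 9.32 in tumours, where the difference of 0.59 ± 0.22 did not pass the test (adjusted p = 0.0997). In MHCIIhi macrophages Clec4e was at 6.22, 6.20 and 6.28 log2 RPKM in LP and at 4.78, 4.74 and 3.67 in tumours. Tumour MHCIIhi macrophages were thus all below those of LP, and Clec4e fell by 1.84 on the log2 scale (SE 0.22, adjusted p = 4.92e-06), which is 3.57-fold lower. MHCIIlow macrophages had 5.06, 5.45 and 5.62 log2 RPKM in LP and 4.84, 4.97 and 4.55 in tumours, and here the groups also stood apart but the difference of -0.59 ± 0.22 missed the threshold (adjusted p = 0.0574). It passed under 8 of 19 alternatives, among them the fit without LP MHCIIlow library II (-0.75, adjusted p = 0.0313).

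On the deposited scaling, Clec4n, a receptor for fungal mannans, was the most even of the activating receptors over the populations and was highest in tumour macrophages. In MHCIIhi macrophages it was at 8.70, 8.76 and 9.01 log2 RPKM in LP and at 9.80, 9.60 and 9.26 in tumours. In MHCIIlow macrophages it was at 8.08, 8.72 and 8.75 log2 RPKM in LP and at 9.90, 9.87 and 9.39 in tumours. Tumour libraries of both subsets lay above their LP counterparts, by 1.66-fold in MHCIIhi (log2 difference 0.73 ± 0.23, adjusted p = 0.0308) and by 2.31-fold in MHCIIlow macrophages (1.21 ± 0.23, adjusted p = 0.00063). The call in MHCIIhi macrophages was lost without LP library III (0.67, adjusted p = 0.102) or IV (0.70, adjusted p = 0.0907), and without tumour library I (0.60, adjusted p = 0.122) or V (0.70, adjusted p = 0.0765). Monocytes and neutrophils of both tissues had means of 8.16 to 8.52 log2 RPKM, and their libraries overlapped. This depended on the scaling. With quantile normalization Clec4n was called lower in neutrophils than in monocytes of LP and of tumours (both -1.14, adjusted p = 0.000117). With libraries centred on their median it was called higher in neutrophils of tumours (0.56, adjusted p = 0.0492).

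Clec7a had its highest group means in neutrophils, with 9.43, 9.15 and 9.23 log2 RPKM in LP and 8.46, 9.32 and 9.96 in tumours, and the groups overlapped. Monocytes followed with 8.32, 8.24 and 8.22 log2 RPKM in LP and 8.54, 8.67 and 8.95 in tumours. In tumours neutrophils and monocytes overlapped, and their log2 difference of 0.53 did not pass (limma adjusted p = 0.229). Among macrophages, MHCIIhi cells of LP had 7.20, 7.03 and 7.29 log2 RPKM, whereas MHCIIlow cells of LP had 4.17, 6.07 and 5.93. The lowest value was that of LP MHCIIlow library II, the most deeply sequenced of its group. Tumour macrophages had 7.97, 8.19 and 7.52 log2 RPKM in MHCIIhi and 7.71, 7.64 and 7.25 in MHCIIlow cells. In MHCIIlow macrophages Clec7a rose 4.42-fold in tumours (log2 difference 2.15 ± 0.37, adjusted p = 0.000243), and it passed the threshold under all 19 alternatives, with differences from 1.54 to 2.57. In MHCIIhi macrophages the difference of 0.72 ± 0.37 did not pass (adjusted p = 0.197), but it did with the donor number as a fixed replicate block (1.39, adjusted p = 0.017) and with arrayWeights (0.86, adjusted p = 0.0142). The fixed block joins LP and tumour libraries with the same number, although these came from different mice.

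Within macrophages, the MHCII level was compared in each tissue. In LP, 2 of 10 members were lower in MHCIIlow than in MHCIIhi macrophages (Clec4e and Clec7a), where 5.57% of all genes were called lower, and 0 were higher by limma, where 2.13% of all genes were. Clec4d was the 1 member higher at an unadjusted p under 0.05 (log2 difference 0.70) and the 1 called higher by voom. Clec7a was 3.45-fold lower (log2 difference -1.79 ± 0.37, adjusted p = 0.0047) and Clec4e 1.81-fold lower (-0.86 ± 0.22, adjusted p = 0.0193). The difference of Clec7a was -1.18 without LP MHCIIlow library II (adjusted p = 0.0204) and kept its size in a fit of only the 6 libraries, with an adjusted p of 0.114. That of Clec4e was lost without LP MHCIIlow library II (-0.70, adjusted p = 0.106) or without LP MHCIIhi library III, IV or V (adjusted p = 0.0602, 0.056 and 0.063). In tumours, 1 member was higher in MHCIIlow macrophages (Clec4d, 0.567% of all genes) and 0 were lower by limma (0.567% of all genes), with 3 at an unadjusted p under 0.05 (Clec4a1, Clec4a2 and Clec4a3) and 3 by voom (Clec4a1, Clec4a3 and Mgl2). Clec4d was 1.96-fold higher (0.97 ± 0.23, adjusted p = 0.0458), a call that was lost without tumour MHCIIhi library I, V or VII (adjusted p = 0.0548, 0.0893 and 0.196) or MHCIIlow library I or V (0.167 and 0.158). The 8 neutrophil markers summed to 46.1 to 50.97 RPKM in tumour MHCIIlow and to 38.5 to 52.8 RPKM in tumour MHCIIhi macrophages, with 6 and 3 of them over 3 reads in every library. The medians of these sums were 46.8 and 47.1 RPKM, so the list as a whole was not higher in MHCIIlow macrophages. Mmp8 alone was at 3.38 ± 0.46 and 1.06 ± 0.88 log2 RPKM and S100a8 at 2.78 ± 0.30 and 0.75 ± 2.76 (SD, n = 3). Ly6g had 0 to 40 reads and 0 reads, and the other genes of the list are not given singly. The part of neutrophil transcripts in the higher Clec4d was not tested.

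Clec4a1 and Clec4a3, which lack the inhibitory motif of Clec4a2, were macrophage and monocyte genes in these cells. They lie next to each other on chromosome 6 (chr6:122921848-122934619 and chr6:122952515-122969875, both on the + strand) and had a correlation of 0.94 over the 24 libraries, the highest between any members. The 250 bases upstream of their starts are shown as the other pair that moved together, with capitals as above:
Clec4a1, chr6:122921598-122921847, + strand: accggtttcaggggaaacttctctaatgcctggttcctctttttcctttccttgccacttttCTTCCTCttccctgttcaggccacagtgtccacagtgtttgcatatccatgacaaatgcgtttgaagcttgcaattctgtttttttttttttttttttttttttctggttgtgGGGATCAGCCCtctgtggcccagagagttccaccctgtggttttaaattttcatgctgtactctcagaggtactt
Clec4a3, chr6:122952265-122952514, + strand: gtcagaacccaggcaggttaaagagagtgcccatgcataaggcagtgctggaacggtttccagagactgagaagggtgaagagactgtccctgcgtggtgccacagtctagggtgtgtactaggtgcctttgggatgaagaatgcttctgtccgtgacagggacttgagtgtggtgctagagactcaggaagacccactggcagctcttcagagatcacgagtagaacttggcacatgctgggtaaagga
The Clec4a1 window held 2 overlapping NF-kB matches, 1 on each strand, and a PU.1 match on the other strand 188 to 182 bases before the start, and the Clec4a3 window held no match to the 3 motifs.

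Clec4a1 was at 7.52, 7.86 and 7.96 log2 RPKM in LP monocytes and at 6.48, 6.14 and 6.68 in tumour monocytes, so that the groups stood apart and the level in tumours was 2.55-fold lower (log2 difference -1.35 ± 0.21, adjusted p = 0.000295). In neutrophils it was at 3.13, 3.35 and 4.02 log2 RPKM in LP and at 2.79, 2.34 and 2.33 in tumours. The level in neutrophils was 19.5-fold below that of monocytes in LP (log2 difference -4.28 ± 0.21) and 15.5-fold below in tumours (-3.95 ± 0.21), with adjusted p values of 3.74e-12 and 7.3e-12. Between tumour and LP neutrophils Clec4a1 fell by 1.01 on the log2 scale (SE 0.21, adjusted p = 0.000859). However, voom on the recovered reads (-0.98, adjusted p = 0.166) and a fit of only these 6 libraries (-1.01, adjusted p = 0.0642) did not call it. The summed level of 9 macrophage markers was 720 to 786 RPKM in LP and 597 to 666 RPKM in tumour neutrophils, and its part in the result was not tested. In macrophages of both tissues the group means were 6.32 to 7.15 log2 RPKM and none of the tumour differences passed. That of MHCIIlow macrophages (-0.49 ± 0.21, adjusted p = 0.097) did so under 6 of 19 alternatives. Among them were the fit without LP MHCIIlow library II (-0.65, adjusted p = 0.0454) and that with the donor number as a fixed replicate block over both tissues (-0.77, adjusted p = 0.0266).

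Clec4a3 was at 6.04, 6.21 and 6.41 log2 RPKM in LP and at 7.29, 7.08 and 7.05 in tumour MHCIIhi macrophages. The tumour libraries were all higher, by 1.89-fold (log2 difference 0.92 ± 0.25, adjusted p = 0.0117), and without LP MHCIIhi library III the adjusted p was 0.0536. MHCIIlow macrophages had group means of 6.21 in LP and 6.35 log2 RPKM in tumours and monocytes of 6.95 and 6.81, with overlapping libraries in both. Neutrophils had 2.85, 3.38 and 4.03 log2 RPKM in LP and 3.29, 3.32 and 3.94 in tumours, 11.6-fold and 9.78-fold below the monocytes of the same tissue (adjusted p = 5.23e-10 and 1.01e-09).

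Clec4a2, the ITIM-bearing member of the group, had the narrowest span of group means, and 6 of the 7 neighbouring pairs in the order of its group means overlapped. The pair that stood apart was LP monocytes, at 3.76, 4.32 and 4.25 log2 RPKM, and tumour monocytes, at 3.38, 3.47 and 3.46. In tumour monocytes the level was 1.59-fold lower (log2 difference -0.67 ± 0.18, adjusted p = 0.0211). This call was lost without LP monocyte library IV or V (adjusted p = 0.0897 and 0.0884) or tumour monocyte library I, II or V (adjusted p = 0.0743, 0.0528 and 0.0515). It was also lost with the donor number as a fixed replicate block over both tissues (-0.61, adjusted p = 0.107). In neutrophils it was at 4.27, 4.65 and 4.37 log2 RPKM in LP and at 5.09, 5.06 and 4.81 in tumours, 1.47-fold higher (log2 difference 0.56 ± 0.18, adjusted p = 0.0222). Here the difference was 0.09 with library sizes as counted reads (adjusted p = 0.724). The call was also lost without LP neutrophil library III or V (adjusted p = 0.0852 and 0.0623) or tumour neutrophil library I or II (adjusted p = 0.0695 and 0.064).

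Clec12a, an inhibitory receptor for uric acid crystals of dead cells, had tumour differences of opposite direction in macrophages and in the other populations. Clec4e (lower in MHCIIhi macrophages, higher in neutrophils) and Clec4a2 (lower in monocytes, higher in neutrophils) were also called in opposite directions. In MHCIIhi macrophages Clec12a was at 3.31, 3.98 and 3.73 log2 RPKM in LP and at 2.18, 1.95 and 1.61 in tumours. In MHCIIlow macrophages it was at 2.92, 3.11 and 3.35 log2 RPKM in LP and at 1.44, 1.48 and 2.00 in tumours. Both subsets stood apart between tissues, and Clec12a was 3.39-fold lower in tumour MHCIIhi (log2 difference -1.76 ± 0.23, adjusted p = 1.19e-05) and 2.81-fold lower in tumour MHCIIlow macrophages (-1.49 ± 0.23, adjusted p = 6.36e-05). Monocytes had 2.81, 2.62 and 3.18 log2 RPKM in LP and 4.44, 3.83 and 4.17 in tumours. Neutrophils had 2.66, 2.11 and 2.52 log2 RPKM in LP and 4.49, 4.56 and 4.48 in tumours. In these populations each tumour library lay above each LP library, by 2.43-fold in monocytes (log2 difference 1.28 ± 0.23, adjusted p = 0.00107) and by 4.23-fold in neutrophils (2.08 ± 0.23, adjusted p = 1.38e-06). All 4 differences passed the threshold under every alternative run, and with library sizes as counted reads the rise in neutrophils was 1.61. The lowest read count behind Clec12a in any library was 299.

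Mgl2 was highest in MHCIIhi macrophages, at 6.93, 7.0 and 7.01 log2 RPKM in LP and 6.88, 6.83 and 5.98 in tumours. MHCIIlow macrophages had 5.05, 5.18 and 5.13 log2 RPKM in LP and 4.87, 5.13 and 4.30 in tumours, below all MHCIIhi libraries of the same tissue. The difference between the subsets was -1.86 in LP and -1.80 in tumours, both with an SE of 1.58, and neither passed (adjusted p = 0.592 and 0.816). The SE comes from the spread in all 8 groups, which includes tumour libraries with 0 reads, whereas the SD of the LP macrophage groups was 0.04 and 0.07. On log2(RPKM + 1), which damps values near 0, the differences were -1.83 in LP (adjusted p = 0.00105) and -1.76 in tumours (adjusted p = 0.012). With voom on the recovered reads they were -1.87 (adjusted p = 0.000167) and -1.78 (adjusted p = 0.00344). In LP, 8 dendritic cell markers summed to 49.9 to 71.0 RPKM in MHCIIhi and to 4.62 to 18.6 RPKM in MHCIIlow macrophages. In tumours the sums were 10.4 to 20.1 and 6.72 to 7.71 RPKM. Their part in the difference of Mgl2 was not tested.

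Outside macrophages, Mgl2 was at 4.12, 3.59 and 4.81 log2 RPKM in LP neutrophils (339 to 1258 reads) and had 0, 14 and 28 reads in tumour neutrophils. Tumour neutrophils were lower than those of LP (log2 difference -6.63 ± 1.58, adjusted p = 0.00314), a size that depends on the prior of 0.25 reads in the library without reads. Without that library, tumour neutrophil library I, it was -3.91 (adjusted p = 0.0144), on log2(RPKM + 1) it was -3.48 (adjusted p = 2.24e-07), and a fit of only the 6 neutrophil libraries did not call it (adjusted p = 0.119). LP monocytes had 60, 357 and 186 reads and tumour monocytes 0, 10 and 24, a difference of -5.00 ± 1.58 that missed the threshold (adjusted p = 0.0514). The size of this difference also depends on the prior of 0.25 reads, in the tumour monocyte library without reads. It passed under 10 of 19 alternatives, among them the fit without tumour monocyte library V (-6.35, adjusted p = 0.0262). On log2(RPKM + 1) it was -1.47 (adjusted p = 0.00712) and on log2(RPKM + 0.1) it was -3.22 (adjusted p = 0.00526). Clec10a had 70, 22 and 122 reads in LP neutrophils and 0, 2 and 0 reads in tumour neutrophils. Set against a floor of 3 reads per library, it was at least 10.3-fold lower in tumour neutrophils, and at least 27.2-fold lower than in tumour monocytes (174 to 360 reads). The limma differences, which rest on the prior of 0.25 reads, were -6.80 (adjusted p = 5.16e-06) and -8.29 (adjusted p = 6.07e-08). On log2(RPKM + 1) they were -1.03 (adjusted p = 0.00268) and -1.95 (adjusted p = 7.25e-07).

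Some lists of markers of other cells moved with these values and others did not. The summed level of 8 dendritic cell markers was 79.6 to 153 RPKM in LP neutrophils, where 7 of them had over 3 reads in every library, and 7.24 to 21.0 RPKM in tumour neutrophils, where 3 did. The summed level of 5 B and plasma cell markers was 404 to 1346 RPKM in LP and 58.2 to 92.7 RPKM in tumour neutrophils. In the same order, that of the fibroblast markers was 17.9 to 35.1 and 1.26 to 1.57 RPKM, and that of the eosinophil markers, which overlapped, 21.7 to 42.2 and 20.6 to 30.8 RPKM. That of the 6 epithelial markers went the other way, at 10.2 to 45.9 and 124 to 246 RPKM. Their part in the lower Mgl2 and Clec10a was not tested. In MHCIIhi macrophages the dendritic cell markers summed to 49.9 to 71.0 RPKM in LP and to 10.4 to 20.1 RPKM in tumours. In MHCIIlow macrophages they summed to 4.62 to 18.6 and 6.72 to 7.71 RPKM, and Flt3, a defining gene of dendritic cells, had 0 reads in each LP MHCIIlow library. The monocyte markers summed to 17.4 to 22.1 RPKM in LP and to 8.90 to 11.7 RPKM in tumour MHCIIhi macrophages, against 808 to 1226 RPKM in LP monocytes. The neutrophil markers summed to 33.4 to 40.6 and 38.5 to 52.8 RPKM in LP and tumour MHCIIhi macrophages, against 11662 to 15153 RPKM in LP neutrophils. Ly6g had 0 reads in each MHCIIhi library of both tissues. The part of these cells in the lower Clec4d and Clec4e of tumour MHCIIhi macrophages was not tested.

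Clec10a was highest in LP macrophages, and in tumour MHCIIlow macrophages its level overlapped that of monocytes. LP macrophages had 2.99, 3.10 and 3.02 log2 RPKM in MHCIIhi and 3.38, 3.28 and 3.11 in MHCIIlow cells. Tumour macrophages had 2.39, 2.42 and 2.43 log2 RPKM in MHCIIhi and 1.77, 1.49 and 1.30 in MHCIIlow cells. Tumour libraries lay below LP libraries in both subsets, but neither difference passed (-0.62 ± 0.83, adjusted p = 0.685, and -1.74 ± 0.83, adjusted p = 0.149), with an SE that again includes the tumour neutrophils with 0 to 2 reads. Without neutrophils in the fit, an alternative chosen after seeing the data, the difference in MHCIIlow macrophages had an adjusted p of 0.000736, and on log2(RPKM + 1) it was -1.45 (adjusted p = 0.000119). For MHCIIhi macrophages, a fit of only the 6 libraries (adjusted p = 0.00995) and voom (adjusted p = 0.0468) passed. LP and tumour monocytes had 1.34 ± 0.67 and 1.55 ± 0.63 log2 RPKM (SD, n = 3).

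The populations were then compared within each tissue, with monocytes, from which gut macrophages can be replenished, as the reference of 3 comparisons that share the monocyte libraries. In LP, 3 of 10 members were higher in MHCIIhi macrophages than in monocytes (Clec4n, Clec12a and Mgl2), against 9.26% of all genes, and 5 were lower (Clec4a1, Clec4a3, Clec4d, Clec4e and Clec7a), against 10.8%. MHCIIlow macrophages of LP had the same 5 members lower, against 17.6% of all genes, and 0 higher by limma, against 11.9%, with 2 (Clec10a and Mgl2) at an unadjusted p under 0.05 and the same 2 by voom. In tumours, 3 members were higher in MHCIIhi macrophages (Clec4a2, Clec4n and Mgl2), against 13.6% of all genes, and 3 were lower (Clec4d, Clec4e and Clec12a), against 18.5%. MHCIIlow macrophages of tumours had 3 members higher (Clec4a2, Clec4n and Mgl2), against 13.6% of all genes, and 4 lower (Clec4d, Clec4e, Clec7a and Clec12a), against 18.4%. Neutrophils of LP had 3 members higher than monocytes (Clec4d, Clec4e and Clec7a), against 24.1% of all genes, and 2 lower (Clec4a1 and Clec4a3), against 30.4%. Neutrophils of tumours had 3 members higher (Clec4a2, Clec4d and Clec4e), against 23.3% of all genes, and 3 lower (Clec4a1, Clec4a3 and Clec10a), against 34.9%.

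Clec4e gave the widest of these gaps among genes with reads in every library. In LP it was 6.38-fold lower in MHCIIhi (log2 difference -2.67 ± 0.22, adjusted p = 3.11e-08) and 11.6-fold lower in MHCIIlow macrophages (-3.53 ± 0.22, adjusted p = 4.69e-10) than in monocytes. In tumours it was 34.3-fold lower in MHCIIhi (-5.10 ± 0.22, adjusted p = 1.24e-12) and 26.2-fold lower in MHCIIlow macrophages (-4.71 ± 0.22, adjusted p = 4.51e-12). Against monocytes, Clec4e was 3.05-fold higher in neutrophils of LP (1.61 ± 0.22, adjusted p = 3.81e-06) and 4.02-fold higher in those of tumours (2.01 ± 0.22, adjusted p = 1.71e-07). These last values shrank to 0.78 and 0.87 with library sizes as counted reads. They were 0.26 (adjusted p = 0.364) and 0.10 (adjusted p = 0.747) with quantile normalization. Clec4a2 was 2.93-fold higher in neutrophils than in monocytes of tumours (1.55 ± 0.18, adjusted p = 3.96e-07), or 0.42 on the log2 scale with counted reads as sizes. Clec7a was 2.02-fold higher in neutrophils of LP (1.01 ± 0.37, adjusted p = 0.0266). This call was lost without LP monocyte library IV or V or LP neutrophil library III (adjusted p = 0.0575, 0.0643 and 0.0771) and with counted reads as sizes (0.19, adjusted p = 0.684). Clec4n did not pass between neutrophils and monocytes (0.04 ± 0.23 in LP and 0.11 ± 0.23 in tumours), and with counted reads as sizes it was called lower in neutrophils (-0.79 and -1.03, adjusted p = 0.00315 and 0.000245).

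Mgl2 was 57.1-fold higher in MHCIIhi macrophages than in monocytes of LP (log2 difference 5.84 ± 1.58, adjusted p = 0.0119). In tumours, where monocytes had 0 to 24 reads of Mgl2 and MHCIIhi macrophages 3847 to 10539, the difference was 10.42 ± 1.58 with the prior of 0.25 reads (adjusted p = 2.9e-05) and 6.32 on log2(RPKM + 1). Clec12a was 1.75-fold higher in MHCIIhi macrophages than in monocytes of LP (0.81 ± 0.23, adjusted p = 0.015) and 4.70-fold lower in tumours (-2.23 ± 0.23, adjusted p = 1.78e-07), so that its order turned between the tissues. Clec4n was 1.58-fold higher in MHCIIhi macrophages of LP (0.66 ± 0.23, adjusted p = 0.0481) and 2.20-fold higher in those of tumours (1.14 ± 0.23, adjusted p = 0.00069). The lower Clec4a3 of LP MHCIIlow macrophages (-0.74 ± 0.25, adjusted p = 0.0296) was lost without LP MHCIIlow library II or III (adjusted p = 0.144 and 0.0565) or LP monocyte library IV or V (0.108 and 0.115). The lower Clec7a of tumour MHCIIlow macrophages (-1.18 ± 0.37, adjusted p = 0.0187) was lost without tumour MHCIIlow library VII (0.0748) or monocyte library V (0.0684). In LP MHCIIhi macrophages against monocytes, the calls of Clec4a1, Clec4a3, Clec4n, Clec7a and Clec12a were each lost without at least 3 of the 6 libraries in turn, whereas Clec4d, Clec4e and Mgl2 passed without each of them.

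**Figure D3:**
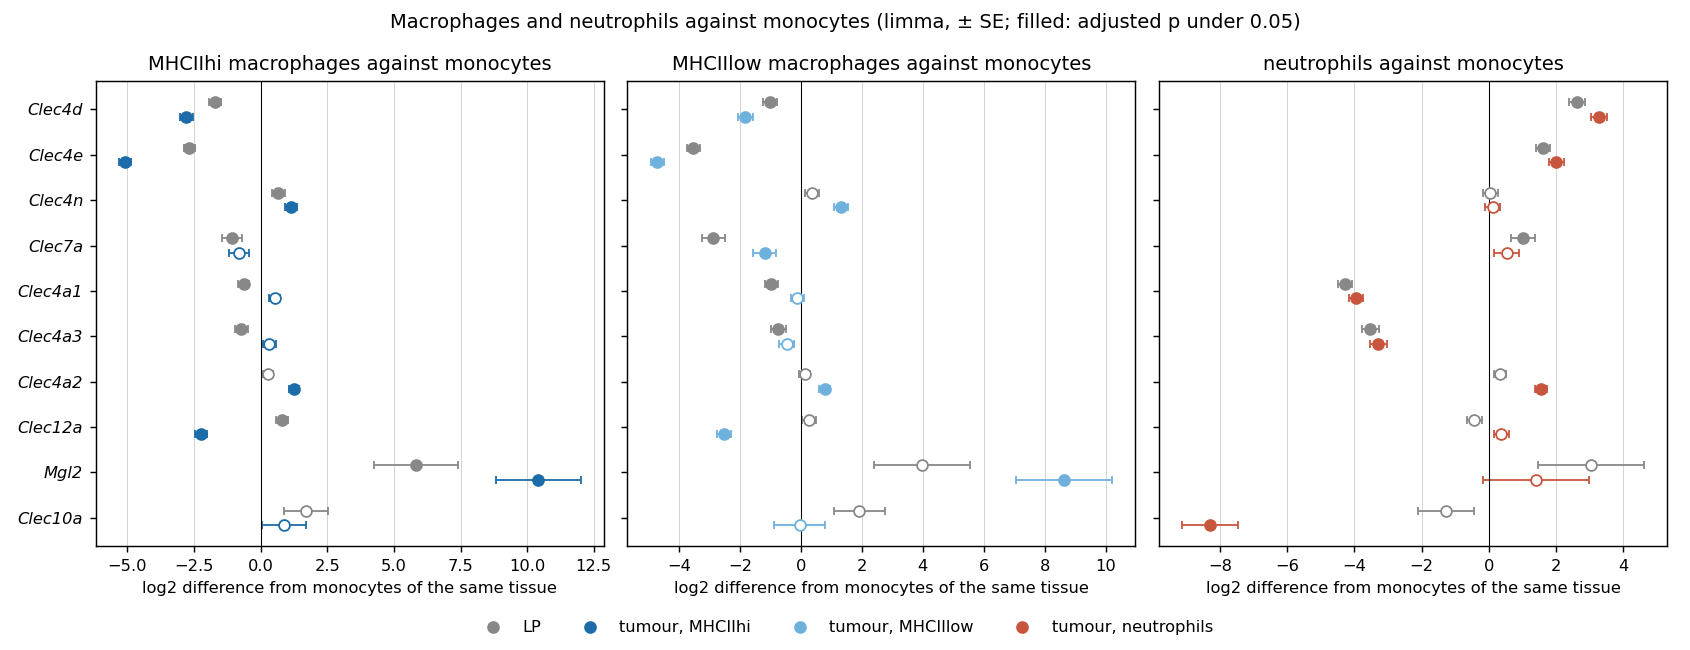
Log2 difference of MHCIIhi macrophages, MHCIIlow macrophages and neutrophils from monocytes of the same tissue (x axis, its range differs between panels) for each gene (y axis), as the limma estimate ± SE, with LP in grey and tumour in colour and filled symbols where the adjusted p was under 0.05. Clec4e lies lowest among the genes with reads in every library in both macrophage panels, at -5.10 and -4.71 in tumours, and Clec4d lies highest in the neutrophil panel among the called genes, at 2.63 and 3.27.

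Whether the tumour difference itself differed between populations was tested as a difference of differences. Between MHCIIlow and MHCIIhi macrophages, 1 of 10 members differed (Clec4e, with 1.46% of all genes called in either direction). The lower Clec4e of tumours was by 1.25 ± 0.31 less marked in MHCIIlow than in MHCIIhi macrophages on the log2 scale (adjusted p = 0.0464). This call was lost in 11 of 25 alternatives, with the adjusted p up to 0.163, among them the fits without LP MHCIIhi library III, IV or V, LP MHCIIlow library II, tumour MHCIIhi library VII (0.89, adjusted p = 0.0736) and tumour MHCIIlow library I or V. Between neutrophils and monocytes, 2 members differed (Clec4a2 and Clec10a, 9.11% of all genes). Clec4a2 was higher in tumour neutrophils and lower in tumour monocytes, a difference of 1.23 ± 0.25 (adjusted p = 0.00471) that passed in all 24 alternatives.

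Between MHCIIhi macrophages and monocytes, 4 members differed (Clec4a1, Clec4a2, Clec4e and Clec12a, 5.76% of all genes), and between MHCIIlow macrophages and monocytes 3 did (Clec4e, Clec7a and Clec12a, 9.28% of all genes). The tumour difference of Clec12a minus that in monocytes was -3.04 ± 0.32 in MHCIIhi (adjusted p = 1.1e-05) and -2.77 ± 0.32 in MHCIIlow macrophages (adjusted p = 2.11e-05). Both passed in all 25 alternatives. The same value of Clec4e was -2.43 ± 0.31 in MHCIIhi (adjusted p = 7.22e-05) and -1.18 ± 0.31 in MHCIIlow macrophages (adjusted p = 0.0187). The latter was lost without LP MHCIIlow library IV, tumour MHCIIlow library VII or tumour monocyte library I (adjusted p = 0.0536, 0.0546 and 0.0524). That of Clec7a was higher by 1.69 ± 0.52 in MHCIIlow macrophages than in monocytes (adjusted p = 0.0485). Leaving out any 1 of 10 of the 12 libraries lost the call, with 1.08 (adjusted p = 0.102) without LP MHCIIlow library II. With the donor number as a fixed replicate block over both tissues it was 1.47 (adjusted p = 0.0697), also without a call.

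The levels of the members rose and fell together in 2 sets over the 24 libraries. Clec4d, Clec4e and Clec7a formed one, with correlations of 0.60 to 0.93 between them, and Clec4a1, Clec4a3 and Clec10a the other, with 0.70 to 0.94. Between these sets all correlations were negative, from -0.44 (Clec4a3 and Clec7a) to -0.84 (Clec4a3 and Clec4d). Beyond the members, the tested genes whose pattern was most like that of Clec4d were Cdk17 and Lilra6 (both r = 0.98), and Slpi (r = 0.98), a secreted protease inhibitor, was among the 3 most like Clec4e. Clec4a1 was most like Fcgr1 (r = 0.98), the high-affinity IgG receptor, Clec4a3 most like Ms4a6c (r = 0.98), and Clec7a most like Sirpb1a (r = 0.98). Clec4n was most like Mmp12 (r = 0.89), the macrophage elastase, and Dcstamp (r = 0.87), a gene of macrophage fusion, Clec12a most like Acsl4 (r = 0.89), Mgl2 most like Acot2 (r = 0.90) and Clec4a2 most like Klhl18 (r = 0.86). Clec10a was most like Thap2 (r = 0.98), with values that rest largely on the tumour neutrophils near 0 reads. The correlations of Mgl2 likewise include libraries with 0 reads, from tumour monocytes and tumour neutrophils. These are descriptions over 24 libraries that share 4 populations, 2 tissues and the scaling.

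**Figure D4:**
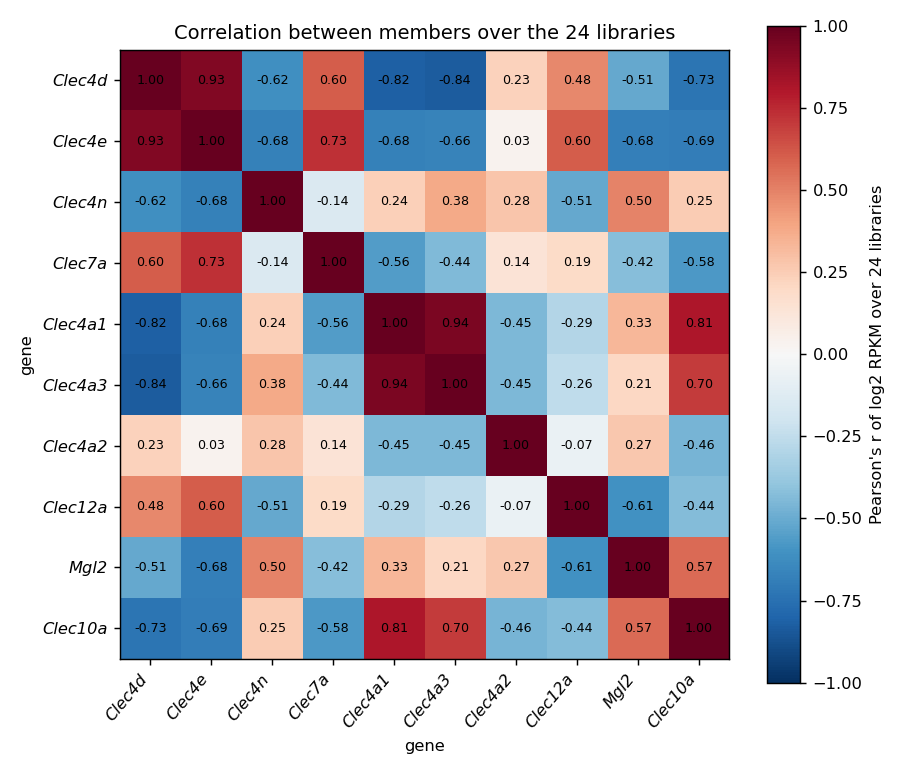
Pearson's r of log2 RPKM over the 24 libraries for each pair of members (both axes are genes), from -1 in blue to 1 in red. Clec4d and Clec4e (0.93) and Clec4a1 and Clec4a3 (0.94) form the closest pairs, and Clec4d is at -0.82 and -0.84 to the latter.

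Other C-type lectin receptors were counted from a list of 32 genes, of which 29 were in the table and 19 were tested. In tumours, 2 were called higher and 2 lower in MHCIIhi macrophages, 2 higher and 6 lower in MHCIIlow macrophages, 2 higher and 1 lower in monocytes, and 1 higher and 7 lower in neutrophils. Of all genes tested, 8.01% were called higher and 11.5% lower in MHCIIhi macrophages, 11.5% and 11.8% in MHCIIlow macrophages, 4.86% and 4.43% in monocytes, and 13.1% and 19% in neutrophils, which is the background of the lists that follow as well. Under the alternatives the list had 3 to 7, 4 to 10, 2 to 4 and 3 to 9 genes called in these populations. The median difference of the list was -0.57, -0.63, 0 and -1.40 in this order, and -0.40, -0.63, 0 and -0.66 with genes at or under 3 reads in a group set to their bound. Clec5a, a Syk-coupled receptor of myeloid cells, rose from 3.42 ± 0.14 to 5.15 ± 0.20 log2 RPKM in MHCIIhi macrophages (adjusted p = 8.2e-06). In MHCIIlow macrophages it rose from 3.34 ± 0.55 to 5.75 ± 0.23 (SD, n = 3, limma adjusted p = 1.43e-07). Cd209a, a relative of human DC-SIGN, had 326 to 616 reads in LP and 0 to 16 in tumour MHCIIhi macrophages (adjusted p = 3.96e-05), and was at least 60.7-fold lower in tumour MHCIIlow macrophages, which had 0 reads. It was also lower in tumour neutrophils, with 2 to 24 reads against 371 to 1287 in LP (adjusted p = 0.000423). Mrc1, the mannose receptor, which is also on the macrophage marker list, fell by 1.67 in MHCIIlow macrophages, by 2.60 in monocytes and by 3.0 in neutrophils on the log2 scale (adjusted p = 0.0464, 0.00773 and 0.000663). Olr1, the receptor for oxidised LDL, rose by 3.44 in monocytes and by 2.78 in neutrophils (adjusted p = 0.00061 and 0.000916). Cd93 was lower in both macrophage subsets (-0.88 and -1.92, adjusted p = 0.00813 and 3.05e-06) and in neutrophils (-0.80, adjusted p = 0.00993).

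Of the 27 genes of Syk and Card9 signalling, all tested, 3 were called higher and 6 lower in tumour MHCIIhi macrophages, and 8 higher and 5 lower in MHCIIlow macrophages. There were 2 higher and 0 lower by limma in monocytes (2 at an unadjusted p under 0.05, 0 by voom), and 6 higher and 2 lower in neutrophils. Under the alternatives 5 to 13, 9 to 14, 1 to 5 and 5 to 12 were called in these populations, against the shares of all genes given above. Their median difference was -0.07, 0.28, 0.17 and 0.27. Plcg2, the phospholipase between Syk and Card9, rose in all 4 populations, from 0.74 in MHCIIhi macrophages to 1.94 in neutrophils on the log2 scale (adjusted p = 0.0138 and 8.83e-07). Nfkb1, the NF-kB subunit p50 and its precursor, fell by 1.33 in MHCIIhi and by 1.61 in MHCIIlow macrophages (adjusted p = 2.52e-05 and 2.01e-06) and rose by 0.84 in neutrophils (adjusted p = 0.00153). Vav3 fell by 1.95 and 1.21 in the macrophage subsets, and Rel rose by 1.58 in neutrophils and Egr2 by 1.44 in monocytes.

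Of the 7 genes on the list of ITIM signalling (phosphatases, adaptors and the kinase Csk), all tested, 3 were called higher and 0 lower by limma in tumour MHCIIhi macrophages (0 lower at an unadjusted p under 0.05, 1 by voom). In MHCIIlow macrophages 3 were higher and 1 lower. Monocytes had 2 higher and 0 lower (0 by either) and neutrophils 2 higher and 1 lower, with medians of 0.19, 0.20, 0.23 and 0.25. Under the alternatives 2 to 4, 3 to 4, 0 to 3 and 1 to 4 were called, beside the same shares of all genes. Ptpn6, the phosphatase SHP-1, rose in all 4 populations, by 1.66 in MHCIIhi and 2.05 in MHCIIlow macrophages, 0.82 in monocytes and 1.14 in neutrophils on the log2 scale (adjusted p = 6.73e-06, 4.29e-07, 0.0125 and 0.000249). Of the 13 tested ligands and partners of these receptors, 2 were higher and 5 lower in MHCIIhi macrophages and 2 higher and 4 lower in MHCIIlow macrophages. There were 4 higher and 0 lower by limma in monocytes (1 at an unadjusted p under 0.05, 0 by voom) and 6 higher and 0 lower in neutrophils (0 by either), with medians of 0.13, -0.16, -0.01 and 0.55. Under the alternatives 6 to 9, 4 to 8, 2 to 5 and 4 to 7 were called, beside the same shares of all genes. Tlr2, a Toll-like receptor that acts with Dectin-1, rose by 1.83 in MHCIIhi macrophages, 0.71 in MHCIIlow macrophages, 1.44 in monocytes and 1.69 in neutrophils (adjusted p = 9.1e-06, 0.03, 0.000431 and 1.55e-05). In MHCIIlow macrophages its LP and tumour libraries overlapped. Anxa1, an annexin shown by dying cells that binds Dectin-1, fell by 2.46 and 1.88 in MHCIIhi and MHCIIlow macrophages and rose by 2.43 in neutrophils (adjusted p = 0.000234, 0.00219 and 0.000165).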

How the data were processed

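RNA of sorted cells from pooled LP or tumour tissue was sequenced after SMART-type amplification, without strand information. The authors aligned reads with STAR 2.3 to GRCm38, counted them per gene with featureCounts 1.5 and deposited log2 RPKM values made with edgeR on scaled library sizes, with a prior of 0.25 reads, after leaving out genes with few reads in all populations. All 415224 values gave whole reads within 0.001, so counts and depth (12838061 to 41718078 reads) were recovered. Samples were grouped by their labels, 3 libraries in each of 8 groups.

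The deposited log2 values were fitted with limma 3.58.1 (R 4.3.3) over all 24 libraries with 1 mean per group (16 residual degrees of freedom) and the Benjamini-Hochberg adjustment over 12878 genes, those whose mean RPKM reached 1 in any group. The other steps used Python 3.11.15, numpy 2.4.6, pandas 2.3.3 and matplotlib 3.10.9. Gene names came from GENCODE for 17190 of 17301 identifiers, and promoter sequences from RefSeq (GRCm38.p6). Fits were tested on simulated data. p values measure the spread between pools. No pair of libraries was a duplicate.

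The members and lists were chosen with earlier results of these data known. Of each list, at most 5 genes were named, ranked by the size of the change. They came from genes that in any population were called, with LP and tumour libraries apart and 10 or more RPKM on average in the higher tissue. Of the 3 genes most like each member, 1 or 2 were named. Alternatives were other pseudocounts, filters, normalizations, weights, voom on the recovered reads, fits of fewer libraries, each library left out, and 2 added after seeing the data: library sizes as counted reads and no neutrophils in the fit. Donor numbers in the labels pair libraries within a tissue. Over 29 pairs with the same number, the deviations from group means correlated by -0.066 to 0.25 (median 0.017), and the replicate block was an alternative, fixed or random. The random block was set within a tissue. The fixed block also joined LP and tumour libraries with the same number, although these came from different mice.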

Additional observations from a re-analysis of the deposited data

Results flagged for a closer look

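The tumour difference of 6 members was found to differ between populations, in 10 results, by the test of the difference of differences. Between MHCIIlow and MHCIIhi macrophages it was Clec4e, at 1.25 ± 0.31 on the log2 scale (limma adjusted p = 0.0464). Between neutrophils and monocytes these were Clec4a2, at 1.23 ± 0.25 (adjusted p = 0.00471), and Clec10a, at -7.01 ± 1.18 (adjusted p = 0.00109), a size that rests on tumour neutrophils with 0 to 2 reads and was -1.18 on log2(RPKM + 1).

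Between MHCIIhi macrophages and monocytes these were Clec4a1, at 1.16 ± 0.29 (adjusted p = 0.0194), Clec4a2, at 0.97 ± 0.25 (adjusted p = 0.026), Clec4e, at -2.43 ± 0.31 (adjusted p = 7.22e-05), and Clec12a, at -3.04 ± 0.32 (adjusted p = 1.1e-05). The call of Clec4a1 was lost without LP MHCIIhi library III (1.09, adjusted p = 0.0541), LP monocyte library V (1.07, adjusted p = 0.0559) or tumour monocyte library II (1.02, adjusted p = 0.0602), and that of Clec4a2 in 7 of 25 alternatives. Between MHCIIlow macrophages and monocytes these were Clec4e, at -1.18 ± 0.31 (adjusted p = 0.0187), Clec7a, at 1.69 ± 0.52 (adjusted p = 0.0485), and Clec12a, at -2.77 ± 0.32 (adjusted p = 2.11e-05).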

How the results depend on the processing

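Of 3240 differences of members under alternatives, 2959 stayed on their side of the threshold, 127 lost the call, 147 gained one and 7 turned direction with a call in 1 of the 2 fits. Of the 2959, 1754 had no call in either fit, and 69 of these changed sign. All 7 that turned compare neutrophils with monocytes. With quantile normalization these were Clec4n in LP (-1.14) and tumours (-1.14) and Clec7a in LP (-0.28), and with library sizes as counted reads Clec4a2 in LP (-0.50), Clec4n in LP (-0.79) and tumours (-1.03) and Clec12a in tumours (-0.77).

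The count of members called moved by over 1.5 times as follows, and the cause was not tested. For tumour against LP, arrayWeights gave 7 in MHCIIlow macrophages and 5 in monocytes, and voom gave 5 in monocytes. For MHCIIlow against MHCIIhi macrophages of LP, log2(RPKM + 1) and voom gave 4. For the same comparison in tumours, log2(RPKM + 1), arrayWeights and the fixed replicate block gave 2, voom gave 4, and no filter, centring on the median, only the libraries compared and no neutrophils gave 0. Quantile normalization gave 5 for MHCIIhi macrophages against monocytes of LP, and counted reads as sizes gave 8 for neutrophils against monocytes of LP. For the difference between MHCIIlow and MHCIIhi macrophages, no filter, centring and no neutrophils gave 0. For that between MHCIIlow macrophages and monocytes, log2(RPKM + 1) and counted reads gave 6, quantile normalization, arrayWeights and no neutrophils 5, and voom 7.

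With each library left out in turn, the tumour comparisons called 3 to 5 members in MHCIIhi and 4 to 6 in MHCIIlow macrophages, 2 to 3 in monocytes and 5 to 6 in neutrophils. MHCIIlow against MHCIIhi macrophages gave 1 to 2 in LP and 0 to 1 in tumours. Against monocytes, MHCIIhi macrophages gave 3 to 6 in LP and 6 to 7 in tumours, MHCIIlow macrophages 4 to 5 and 6 to 7, and neutrophils 4 to 5 and 6 to 8. The differences of tumour differences gave 0 to 1 (MHCIIlow and MHCIIhi), 2 to 2 (neutrophils and monocytes), 2 to 5 (MHCIIhi and monocytes) and 1 to 4 (MHCIIlow and monocytes).

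A random replicate block by donor number changed 2 of 160 calls, with Mgl2 called lower in tumour monocytes (-5.02, adjusted p = 0.0464) and Clec4a1 higher in MHCIIhi macrophages than in monocytes of tumours (0.53, adjusted p = 0.048). The fixed replicate block, which also joined LP and tumour libraries with the same number, changed 9 of 160. Besides Clec7a in MHCIIhi macrophages, Clec4a2 in monocytes and Clec4a1 in MHCIIlow macrophages between tumour and LP, and the difference of Clec7a between MHCIIlow macrophages and monocytes, whose values are given with those genes, they were Clec4e higher in tumour monocytes (0.71, adjusted p = 0.0424), Clec4d higher (0.72, adjusted p = 0.0476) in MHCIIlow than MHCIIhi macrophages of LP, Clec4a3 lower (-0.79, adjusted p = 0.0413) in the same comparison in tumours, and Mgl2 higher in MHCIIlow macrophages (3.87, adjusted p = 0.0355) and neutrophils (3.03, adjusted p = 0.0472) than in monocytes of LP. The share of higher genes among all calls moved by over 10 points mainly with counted reads as sizes, most for MHCIIlow against MHCIIhi macrophages of LP (27.6% to 63.8%) and tumours (50% to 79.3%).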
